A study of Mus musculus with 20 samples.

Results

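The TRIM (tripartite motif) family was followed across 20 mouse kidney tumours of MSRT1, a cell line that the labels call renal medullary carcinoma. A gene was a member if its symbol was Trim followed by a number, with or without a letter from a to d, and if it reached at least 1 TPM (a relative abundance that sums to the same total in every library) in at least 5 libraries. Of 66 such genes in the table, 36 were members, among 15422 genes of 34234 that passed the same threshold. 1 further gene of that naming pattern is not analysed here. Total RNA of each tumour was sequenced in bulk, with 5 libraries per group that the labels call biological replicates of treated mice and that were counted as 1 mouse each. Veh_IgG received vehicle and a control antibody (IgG), GYY_IgG received GYY4137 (a slow-releasing hydrogen sulfide donor) and IgG, Veh_PD1 received vehicle and an antibody against the checkpoint receptor PD1, and GYY_PD1, called the combination, received GYY4137 and anti-PD1. The tumours all come from 1 cell line, and the labels used here give no mouse strain, age, dose or time.

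TRIM proteins carry a RING domain, which joins ubiquitin to target proteins, followed by B-box zinc fingers and a coiled coil, and differ mainly in the domain at the C-terminal end. Most act as ubiquitin ligases, and the largest branch ends in a PRY-SPRY domain that binds the target. Several are switched on by interferon and restrict viruses or tune the RNA and DNA sensing pathways, while others act in chromatin, on microtubules, in muscle or at the endoplasmic reticulum.

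Members were grouped by role from background knowledge. The interferon and antiviral list had 12 members of 20 listed genes in the table: Trim6, Trim12c, Trim14, Trim21, Trim25, Trim26, Trim30a, Trim30c, Trim34a, Trim34b, Trim56 and Trim65. Other PRY-SPRY genes gave 10 of 21: Trim7, Trim11, Trim16, Trim27, Trim35, Trim39, Trim41, Trim47, Trim68 and Trim72. All 5 genes with another C-terminal domain were members, namely Trim13 and Trim59 (transmembrane), Trim23 (an ARF domain), Trim37 (a MATH domain) and Trim45 (a filamin domain). Trim8, Trim29 and Trim44, which have none of these domains, were 3 of 5 such genes. The NHL-repeat genes gave Trim3 and Trim32 of 4, the bromodomain genes of the TIF1 type gave Trim24 and Trim33 of 3, and the microtubule and muscle genes with a COS box gave Trim46 and Trim63 of 8. Among the 30 genes under the threshold were the muscle ligases Trim54 and Trim55, the brain genes Trim9 and Trim67, the erythroid genes Trim10 and Trim58, and Trim71, a regulator of stem cells. Just inside the threshold, Trim30c reached 1 TPM in 6 libraries. Just outside, Trim2 did so in 3 libraries.

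The promoters of the 5 members with ISRE-like letters are shown because 2 of them (Trim30a and Trim21) followed the interferon response genes over 18 of the libraries. RefSeq promoter windows (GRCm38.p6, 250 bases before to 50 after the start) matched 27 of the 36 members. Both strands were searched for GAAA, any 2 bases and GAAA, the core of an interferon-stimulated response element (ISRE), and for TTCNNNGAA, the core of a gamma-activated site (GAS). Capitals mark the ISRE-like letters, and each window is printed 5′ to 3′ on the strand of its gene. The windows lie at chr7:104465144-104465443 on the minus strand for Trim30a (the first of its 2 windows), chr7:102565433-102565732 on the minus strand for Trim21, chr7:104353300-104353599 on the minus strand for Trim12c, chr7:104244207-104244506 on the plus strand for Trim34a and chr17:36836896-36837195 on the plus strand for Trim26.
Trim30a: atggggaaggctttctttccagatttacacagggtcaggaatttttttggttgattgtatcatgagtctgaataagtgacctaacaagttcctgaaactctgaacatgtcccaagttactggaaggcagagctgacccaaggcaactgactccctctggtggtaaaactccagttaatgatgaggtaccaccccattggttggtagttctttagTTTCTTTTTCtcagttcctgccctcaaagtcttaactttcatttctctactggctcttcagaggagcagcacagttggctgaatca
Trim21: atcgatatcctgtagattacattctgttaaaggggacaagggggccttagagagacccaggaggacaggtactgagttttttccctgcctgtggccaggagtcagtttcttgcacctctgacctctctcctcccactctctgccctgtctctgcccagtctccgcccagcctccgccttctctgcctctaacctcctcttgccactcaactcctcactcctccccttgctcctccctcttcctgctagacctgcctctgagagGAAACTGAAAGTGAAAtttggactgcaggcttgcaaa
Trim12c: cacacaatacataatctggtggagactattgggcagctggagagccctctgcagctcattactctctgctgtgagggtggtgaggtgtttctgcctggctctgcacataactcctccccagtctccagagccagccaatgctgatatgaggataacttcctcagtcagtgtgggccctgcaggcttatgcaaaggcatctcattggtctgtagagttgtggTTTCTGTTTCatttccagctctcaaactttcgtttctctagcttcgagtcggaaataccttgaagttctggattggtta
Trim34a: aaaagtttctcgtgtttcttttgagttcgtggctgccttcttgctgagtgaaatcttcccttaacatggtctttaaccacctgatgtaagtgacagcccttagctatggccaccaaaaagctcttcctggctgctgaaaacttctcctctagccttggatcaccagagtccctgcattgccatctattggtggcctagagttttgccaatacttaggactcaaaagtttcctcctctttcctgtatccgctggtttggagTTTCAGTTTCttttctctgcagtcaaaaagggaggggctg
Trim26: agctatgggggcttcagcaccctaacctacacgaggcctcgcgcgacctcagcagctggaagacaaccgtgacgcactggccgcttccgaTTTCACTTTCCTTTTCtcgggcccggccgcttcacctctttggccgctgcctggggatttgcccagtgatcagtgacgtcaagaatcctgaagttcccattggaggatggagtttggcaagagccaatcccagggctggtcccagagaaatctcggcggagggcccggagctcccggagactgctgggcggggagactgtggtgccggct
The ISRE-like letters stood in a window of 5 of the 27 members, against 3.44% of all 32851 windows and 3.99% of all genes with a window. Trim21 and Trim26 each held an overlapping pair of matches. The GAS-like letters stood in windows of 3 members (Trim30c, Trim45 and Trim46), against 8.30% of all windows and 9.55% of genes. A match describes the letters only.

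On mm10 with GENCODE M21 names, 10 members lie on chromosome 7. Of these, 6 lie within 246.4 kb, from 104218793 to 104465193, in the order Trim6, Trim34a, Trim34b, Trim12c, Trim30c and Trim30a. Trim12c and the Trim30 and Trim34 genes have close copies there, so the division of reads among them is uncertain. Overlap also limits some members. Trim14 shares 31.3% of its exonic bases with Nans (mean 17.7 TPM) on the opposite strand. Trim72 shares 27.6% with Gm15533 (0.318 TPM), and Trim34a shares 23.5% with Gm47248, for which no level is given. Smaller overlaps on the opposite strand involve abundant genes. Trim46 shares 239 exonic bases with Krtcap2 (87.3 TPM), and Trim41 shares 31 with Rack1 (188.1 TPM). Trim47 and Trim65 share 225 exonic bases on the same strand. The library kit named in the labels does not mark strand, so reads from opposite strands cannot be told apart there.

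Highest of the members was Trim35, a PRY-SPRY ligase, with a mean of 39.7 TPM over the 20 libraries. Trim47 (21.7 TPM), Trim44 (19.03 TPM), Trim59 (17.4 TPM), Trim27 (16.1 TPM), Trim8 (15.6 TPM) and Trim24 (15.1 TPM) followed, and Trim30c (0.791 TPM) was lowest. Replicates 1 to 5 of Veh_IgG had 93.1, 44.6, 67, 46.9 and 57.6 TPM of Trim35. The same gene stood at 72.4, 66.7, 17.6, 21.8 and 69.4 TPM in GYY_IgG, at 15.1, 47.5, 32.3, 26 and 21.5 TPM in Veh_PD1 and at 1.56, 32.4, 27.4, 4.35 and 29.8 TPM in GYY_PD1. The Veh_IgG and GYY_IgG ranges overlapped, and the lowest 2 of all 20 were GYY_PD1 replicates 1 and 4. Neighbours from Trim47 to Trim24 in this order differ by less than the spread between libraries, as in the plot of TPM by gene.

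**Figure D1:**
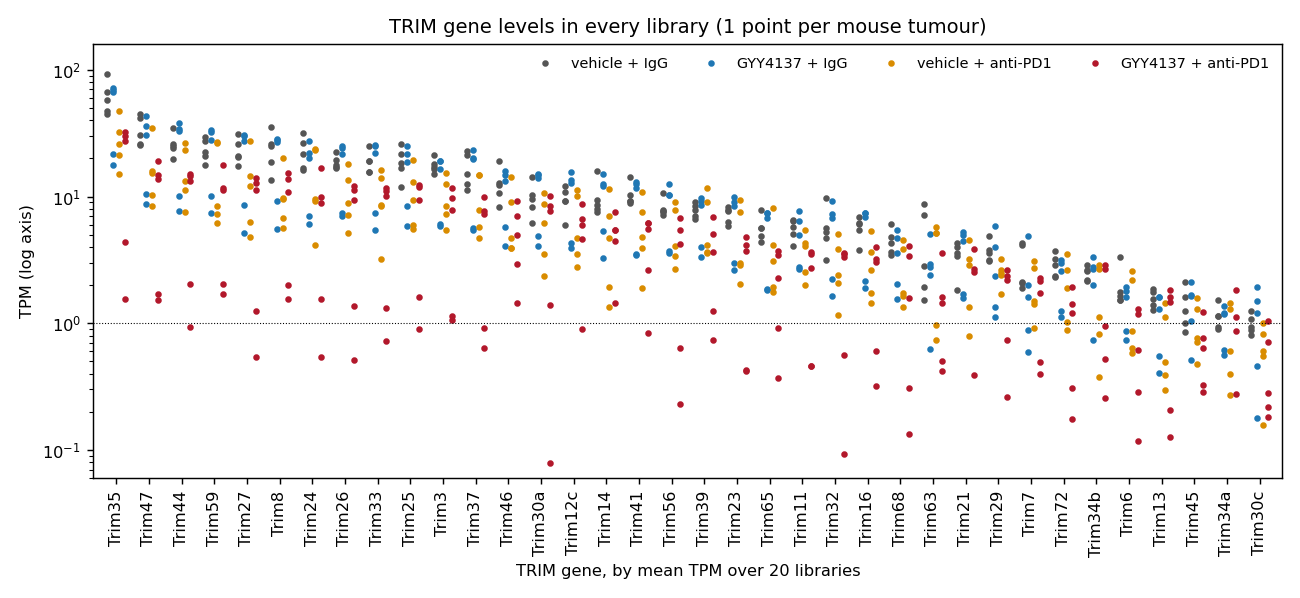
TPM of the 36 TRIM members (log axis, 1 point per library, coloured by group), ordered by mean TPM; the dotted line is 1 TPM. Trim21 and Trim34a are at 0 in GYY_PD1 replicate 1 and are not drawn there. The 2 lowest points of most genes are GYY_PD1 replicates 1 and 4.

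A low TPM of every member in a library can follow from what else fills it. GYY_PD1 replicates 1 and 4 stood apart, with 8198 and 6659 genes at 1 TPM or more against 11517 to 15162 in the other 18 libraries. Nuclear protein-coding genes, without provisional and olfactory or vomeronasal names, held 4.20% and 2.89% of their TPM, against 11.04% to 42.6% elsewhere. Their median Spearman correlations with the other libraries were 0.389 and 0.803, against 0.854 or more. For that reason differences are given as relative log2, the log2 TPM of a gene minus the median of its library over the 15422 tested genes. On the deposited scale the median gene differed by -2.09 between the combination and Veh_IgG. This scaling takes out most of that shift and leaves the median gene at -0.17. Before the scaling, 25 of 36 members were called lower by limma in the combination than in Veh_IgG, where 70.2% of all genes were called. In bulk RNA, fewer cells of a type and less RNA per cell cannot be told apart. Nor can treatment and the protein-coding share between the combination and Veh_IgG, with or without replicates 1 and 4.

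No member passed limma's adjusted p threshold of 0.05 in any of the 6 comparisons (4 pairs with 1 treatment changed, the combination against Veh_IgG, and the interaction). Nor did many other genes: 0% of the 15422 tested genes passed in 5 of them and 0.00648% (1 gene) in GYY_PD1 against Veh_PD1. With no filter on low genes, where the median is taken over all 34234, 13 members were called lower in the combination than in Veh_IgG and 20.5% of genes were called. The comparisons share groups, so their values for 1 gene are not independent. At an unadjusted p under 0.05 the members numbered 4 of 36 in GYY_PD1 against Veh_IgG, where 16.9% of all genes reached it. That count was 4 without GYY_PD1 replicate 1 (14.1% of genes) and 5, all higher, without replicates 1 and 4 (7.93%). With all libraries the members numbered 0 in GYY_IgG against Veh_IgG (1.15% of genes), 1 in Veh_PD1 against Veh_IgG (1.77%), 3 in GYY_PD1 against Veh_PD1 (12.9%), 3 in GYY_PD1 against GYY_IgG (9.77%) and 1 in the interaction (2.44%). The median member differed by -0.05 in GYY_PD1 against Veh_IgG, with 16 members above 0 and 20 below, beside -0.17 for all genes. Without GYY_PD1 replicate 1 the median member was at 0.03, and the differences of 29 of the 36 members changed sign or moved by over 1.5 times. In the other comparisons the median member lay between -0.10 and 0.02, and the median gene between -0.17 and -0.01.

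**Figure D2:**
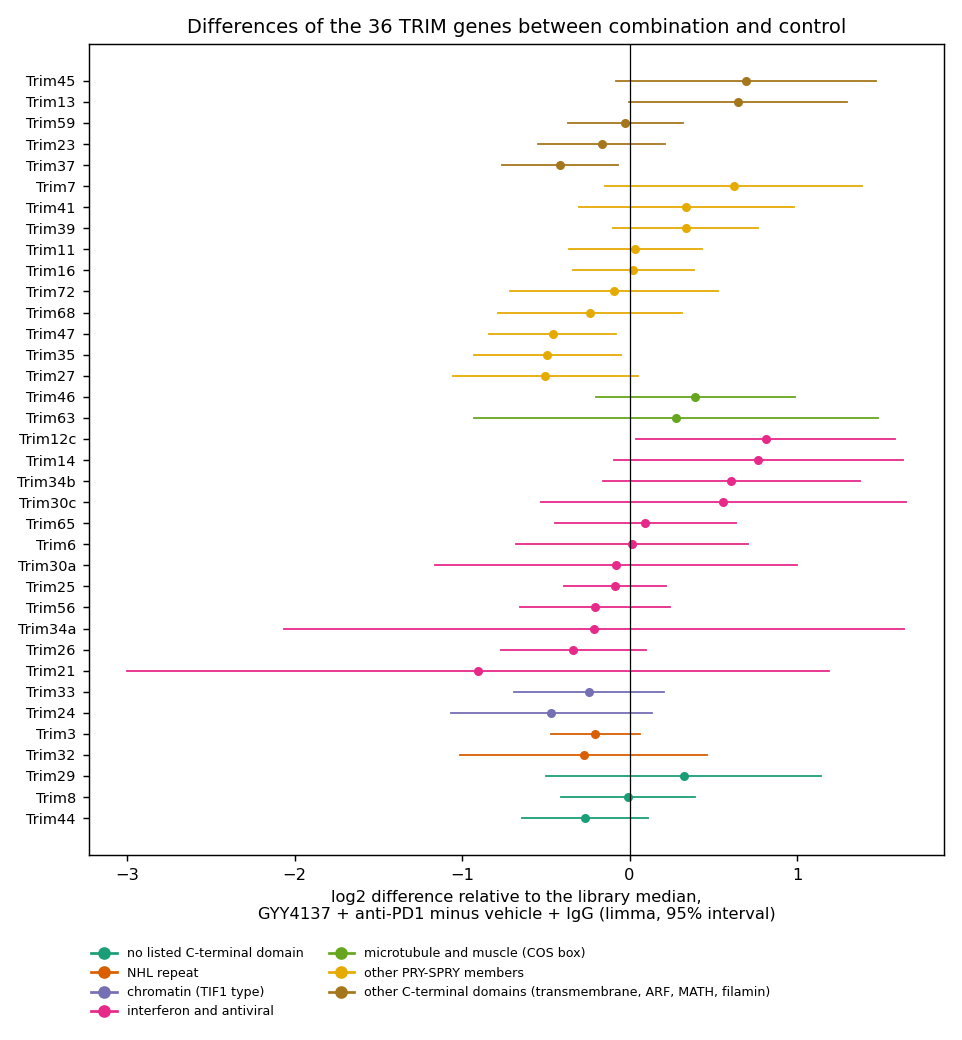
Log2 difference relative to the library median between the combination and Veh_IgG for each of the 36 members (points), with limma's 95% interval (lines), coloured by role list. Intervals of Trim47, Trim37, Trim35 and Trim12c leave out 0 before adjustment for all genes, and those of Trim21 and Trim34a are the widest.

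Among the PRY-SPRY genes outside the antiviral list, 5 of 10 lay higher and 5 lower in the combination than in Veh_IgG (median -0.04). Trim47, a ligase of this type, had relative log2 values of 2.04, 1.82, 1.93, 1.71 and 2.19 in Veh_IgG and 1.52, 1.74, 1.51, 0.95 and 1.68 in GYY_PD1. It lay at 2.10, 1.77, 1.36, 1.63 and 1.65 in GYY_IgG and 1.53, 1.97, 1.10, 1.91 and 1.78 in Veh_PD1. The lowest library was GYY_PD1 replicate 4, and the groups overlapped only through GYY_PD1 replicate 2 and Veh_IgG replicate 4. The difference was -0.46 (SE 0.18, limma adjusted p = 0.257). An exact two-sided permutation test over 252 splits gave p = 0.0159, where the smallest possible is 0.00794. For GYY_IgG against Veh_IgG the difference of Trim47 was -0.24 (SE 0.18, limma adjusted p = 1.00), and -0.15 without GYY_IgG replicate 3.

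Trim35 had 3.09, 2.59, 3.06, 2.59 and 2.66 in Veh_IgG, 2.84, 2.66, 2.38, 2.69 and 2.83 in GYY_IgG, 2.39, 2.41, 2.12, 2.68 and 2.84 in Veh_PD1 and 1.40, 2.50, 2.38, 2.46 and 2.78 in GYY_PD1. Replicate 1 of the combination was far below the other 19 libraries. The difference between the combination and Veh_IgG was -0.49 (SE 0.21, limma adjusted p = 0.276) and -0.27 without that replicate.
Trim27, a nuclear ligase first known as a fusion partner of the Ret oncogene, had 1.501, 1.25, 1.35, 1.42 and 1.496 in Veh_IgG, 1.57, 1.55, 0.61, 1.35 and 1.49 in GYY_IgG, 0.72, 1.62, 0.97, 1.57 and 1.06 in Veh_PD1 and -0.12, 1.16, 1.42, 0.66 and 1.37 in GYY_PD1. Its low values were spread over groups: GYY_PD1 replicates 1 and 4, GYY_IgG replicate 3 and Veh_PD1 replicate 1 held the 4 lowest. The difference was -0.50 (SE 0.26, limma adjusted p = 0.322), and -0.25 without GYY_PD1 replicate 1.

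Trim7, which binds the glycogen primer glycogenin, gave the second smallest p in GYY_PD1 against GYY_IgG. GYY_PD1 stood at -0.24, -1.35, -1.29, -0.99 and -1.33 and GYY_IgG at -2.34, -1.12, -1.93, -2.52 and -2.60. GYY_IgG replicate 2 lay inside the range of the combination and the other 4 lay below it. The difference was 1.06 (SE 0.37, limma adjusted p = 0.461). Veh_IgG was scattered, at -2.52, -0.85, -1.96, -0.87 and -2.12, and Veh_PD1 lay at -0.95, -1.72, -1.25, -1.52 and -1.71.
Trim39, a ligase that acts on regulators of apoptosis, had -0.37, 0.30, -0.27, -0.14 and -0.22 in Veh_IgG and 0.33, 0.39, 0.28, 0.03 and 0.26 in Veh_PD1. It lay at -0.25, -0.12, 0.23, -0.03 and -0.08 in GYY_IgG and 1.09, 0.26, -0.05, -0.09 and -0.24 in GYY_PD1. Anti-PD1 alone was higher apart from Veh_IgG replicate 2, by 0.40 (SE 0.21, limma adjusted p = 1.00). Of the remaining members of this branch, the differences between the combination and Veh_IgG ran from -0.23 for Trim68 to 0.34 for Trim41, and none had an unadjusted p under 0.05. Trim41 turned to -0.05 and Trim68 was at -0.0005 without GYY_PD1 replicate 1, and without replicate 3 Trim68 was at -0.44.

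The smallest unadjusted limma p of any member was that of Trim13, a ligase anchored in the endoplasmic reticulum, where it takes part in disposing of misfolded proteins. Its relative log2 values were -1.52, -1.64, -1.70, -2.63 and -1.56 in GYY_PD1, -2.54, -3.00, -2.35, -3.38 and -3.33 in Veh_PD1, -2.96, -2.71, -3.07, -2.63 and -2.59 in GYY_IgG and -2.81, -1.98, -2.19, -2.48 and -2.84 in Veh_IgG. Replicates 1, 2, 3 and 5 of the combination lay above all 15 other libraries, and replicate 4 lay among them. How many of all genes do the same with 1 combination library set aside was not counted. Against Veh_PD1 the difference was 1.11 (SE 0.31, 95% interval 0.46 to 1.76, limma adjusted p = 0.325). Against GYY_IgG it was 0.98 (limma adjusted p = 0.461), against Veh_IgG 0.65 (limma adjusted p = 0.297), and the interaction was 1.44 (SE 0.44, limma adjusted p = 0.875). By unadjusted p Trim13 ranked 98th of 15422 genes against Veh_PD1 and 25th in the interaction. Exact permutation p-values were 0.0238 against Veh_PD1 and 0.0238 against GYY_IgG. Without replicate 4 the difference from Veh_PD1 was 1.31, and over 32 alternative fits the adjusted p ran from 0.121 to 0.962 and never passed. Trim13 was low in level, with a mean of 1.12 TPM. Other members up to 2.06 TPM also lay higher in the combination than in Veh_IgG: Trim45 (0.70), Trim7 (0.62), Trim34b (0.61) and Trim30c (0.56). At that level Trim6 (0.01), Trim72 (-0.09) and Trim34a (-0.21, with 0 TPM in GYY_PD1 replicate 1) did not follow. The highest members, Trim35 (-0.49), Trim47 (-0.46), Trim44 (-0.26), Trim59 (-0.02), Trim27 (-0.50), Trim8 (-0.01) and Trim24 (-0.47), all lay below Veh_IgG.

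Trim37, a ligase of centrosomes and peroxisomes, had 0.11, 0.79, 0.54, 0.21 and 0.75 in GYY_PD1 and 0.97, 0.60, 0.90, 0.68 and 1.33 in Veh_IgG. GYY_IgG stood at 1.21, 0.91, 0.68, 0.73 and 1.05 and Veh_PD1 at 0.69, 0.73, 1.00, 0.94 and 0.94. The 2 lowest libraries were GYY_PD1 replicates 1 and 4, replicate 3 came next, and replicates 2 and 5 lay within the range of the other groups. The difference from Veh_IgG was -0.42 (SE 0.16, limma adjusted p = 0.257), and those from Veh_PD1 and GYY_IgG were -0.38 and -0.44 (limma adjusted p = 0.374 and 0.461).
Trim59, a membrane ligase, was steady, at 1.34, 1.59, 1.14, 1.43 and 1.68 in Veh_IgG, 1.68, 1.67, 1.57, 1.13 and 1.51 in GYY_IgG, 1.34, 1.59, 1.83, 1.06 and 1.04 in Veh_PD1 and 1.53, 1.62, 1.11, 1.36 and 1.43 in GYY_PD1. All groups overlapped, and the combination differed from Veh_IgG by -0.02 (95% interval -0.37 to 0.32). Trim45 differed by 0.70 and Trim23 by -0.17, both short of an unadjusted p of 0.05. Trim45 was at 0.41 without GYY_PD1 replicate 1, and Trim23 was at -0.05 without GYY_PD1 replicate 4 and at -0.08 without Veh_IgG replicate 2.

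**Figure D3:**
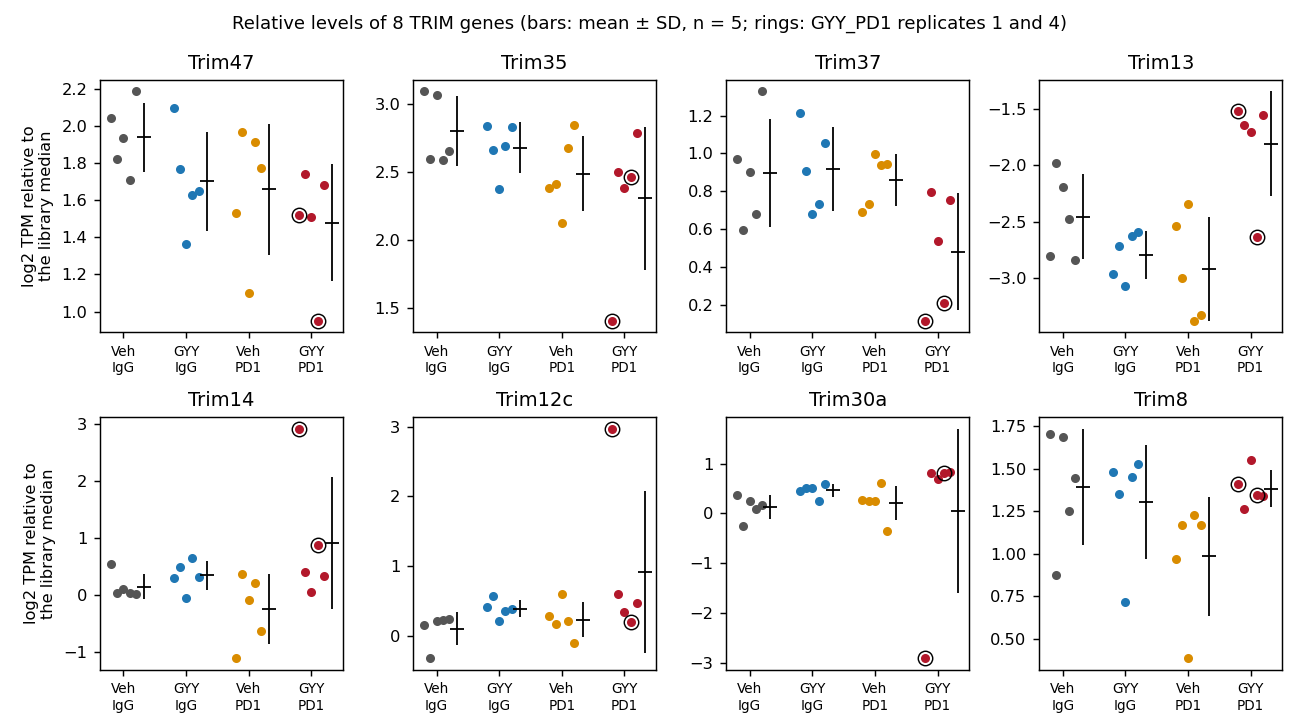
Log2 TPM relative to the library median of 8 TRIM genes in every library, by group (points, 1 per mouse), with mean and SD beside them; rings mark GYY_PD1 replicates 1 and 4. In Trim12c, Trim14, Trim30a and Trim35 the farthest point is GYY_PD1 replicate 1.

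In the interferon and antiviral list, 6 of 12 members lay higher and 6 lower in the combination than in Veh_IgG (median -0.03). Without GYY_PD1 replicate 1, 10 of the 12 lay higher (median 0.28), and without replicates 1 and 4, 8 did (median 0.14). Trim12c, a relative of the retrovirus restriction factor Trim5, had 0.16, -0.32, 0.21, 0.23 and 0.24 in Veh_IgG, 0.41, 0.57, 0.22, 0.35 and 0.39 in GYY_IgG, 0.28, 0.16, 0.60, 0.21 and -0.10 in Veh_PD1 and 2.97, 0.60, 0.34, 0.20 and 0.47 in GYY_PD1. Replicate 1 of the combination was far above all other libraries. The difference from Veh_IgG was 0.81 (SE 0.37, limma adjusted p = 0.285) and 0.30 without that replicate (SE 0.14, limma adjusted p = 0.358). Over 33 alternative fits, most of which keep that replicate, the limma adjusted p ran from 0.102 to 0.589. On the deposited scale and with no filter the difference was negative.
Trim14, which has no RING and acts as an adaptor in antiviral signalling, had 2.93, 0.40, 0.06, 0.88 and 0.33 in GYY_PD1 and -1.11, 0.37, -0.08, 0.21 and -0.64 in Veh_PD1. It lay at 0.56, 0.04, 0.10, 0.04 and 0.03 in Veh_IgG and 0.31, 0.50, -0.04, 0.66 and 0.31 in GYY_IgG. The difference from Veh_PD1 was 1.17 (SE 0.41, limma adjusted p = 0.335), and 0.67 without GYY_PD1 replicate 1.

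Trim30a, Trim21, Trim34a and Trim56 fell outside the rule for named genes and were chosen after their values were seen. Trim30a, an interferon-induced brake on NF-kB signalling in mice, had 0.38, -0.25, 0.26, 0.08 and 0.18 in Veh_IgG, 0.46, 0.52, 0.52, 0.26 and 0.60 in GYY_IgG, 0.27, 0.25, 0.25, 0.61 and -0.35 in Veh_PD1 and -2.91, 0.82, 0.69, 0.82 and 0.83 in GYY_PD1. Replicates 2 to 5 of the combination lay above all 15 libraries of the other groups, and replicate 1 lay below all of them. The difference from Veh_IgG was -0.08 (SE 0.51) with all libraries. Without GYY_PD1 replicate 1 it was 0.66 (SE 0.15, limma adjusted p = 0.131), and over 33 alternative fits the adjusted p ran from 0.0683 to 0.987, the lowest being on the deposited scale, where the difference was negative.
Trim21, the cytosolic antibody receptor and ligase, stood at -1.36, -2.02, -1.01, -1.11 and -1.44 in Veh_IgG and -8.12, -0.57, -0.97, -1.02 and -0.78 in GYY_PD1, and at 0 TPM in GYY_PD1 replicate 1. GYY_IgG had -1.18, -1.003, -1.10, -0.99 and -0.97 and Veh_PD1 had -1.11, -0.97, -1.21, -0.49 and -1.92. The combination differed from Veh_IgG by -0.90 with all libraries and by 0.55 without that replicate (SE 0.24, limma adjusted p = 0.318). Over 32 alternative fits, most of which keep that replicate, the limma adjusted p ran from 0.0655 to 0.771.
Trim34a, from the same chromosome 7 cluster as Trim30a, was likewise at 0 TPM in that replicate. It had -8.12, -1.65, -2.24, -1.51 and -2.31 in GYY_PD1, -3.56, -3.04, -2.81, -2.78 and -2.59 in Veh_IgG, -3.07, -3.15, -2.47, -2.59 and -2.84 in GYY_IgG and -3.41, -2.78, -2.35, -2.76 and -2.90 in Veh_PD1. Replicates 2 to 5 of the combination lay above all other libraries. The difference from Veh_IgG was -0.21 with all libraries and 1.03 without replicate 1 (SE 0.29, limma adjusted p = 0.189). Over 32 alternative fits, most of which keep replicate 1, the limma adjusted p ran from 0.0655 to 0.949. For neither Trim34a nor Trim30a was it counted how many of all genes do the same with 1 combination library set aside.

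Only 2 members had groups that did not overlap in a comparison of 5 libraries with 5. No member did in GYY_PD1 against Veh_IgG (3.26% of all genes), in Veh_PD1 against Veh_IgG (0.798%) or in GYY_PD1 against GYY_IgG (0.96%). Trim56, a ligase that supports DNA sensing through STING, had 0.03, 0.24, 0.08, 0.12 and 0.07 in GYY_IgG and -0.03, 0.02, -0.17, 0.01 and -0.26 in Veh_IgG, a difference of 0.19. The share of all genes without overlap in that comparison was 0.875%. Trim56 lay at -0.12, 0.01, 0.07, -0.01 and 0.18 in Veh_PD1 and -1.35, 0.23, 0.04, -0.32 and -0.04 in GYY_PD1.
Trim8, which acts on SOCS1 and NF-kB signalling, had 1.41, 1.26, 1.55, 1.34 and 1.34 in GYY_PD1 and 0.97, 1.17, 0.39, 1.23 and 1.17 in Veh_PD1. Its difference was 0.40 (SE 0.19, limma adjusted p = 0.386), where 1.06% of all genes had no overlap, and 0.25 without Veh_PD1 replicate 3. Veh_IgG had 1.70, 0.88, 1.69, 1.25 and 1.44 and GYY_IgG had 1.48, 1.35, 0.72, 1.45 and 1.53. Veh_PD1 differed from Veh_IgG by -0.41 (SE 0.19, limma adjusted p = 1.00) and by -0.26 without Veh_PD1 replicate 3, and the interaction was 0.48 (limma adjusted p = 0.875).

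Members with roles outside immunity are described next. Trim44, which has no RING and carries a zinc finger of the deubiquitinase type, had 1.66, 1.70, 1.70, 1.67 and 1.11 in Veh_IgG, 1.76, 1.86, 1.19, 1.58 and 1.76 in GYY_IgG, 1.37, 1.58, 1.66, 1.72 and 1.90 in Veh_PD1 and 0.66, 1.34, 1.53, 1.37 and 1.61 in GYY_PD1. The combination differed from Veh_IgG by -0.26 (SE 0.18, limma adjusted p = 0.394), and by -0.10 without GYY_PD1 replicate 1.
Trim3, a brain-enriched NHL protein, had the smallest spread within groups of any member over the 20 libraries, an SD of 0.18. Over the 18 libraries without GYY_PD1 replicates 1 and 4, Trim56 had the smallest, 0.11. The values of Trim3 were 0.96, 1.15, 1.09, 0.95 and 0.99 in Veh_IgG, 0.92, 0.64, 0.84, 0.80 and 0.96 in GYY_IgG, 0.92, 0.79, 0.77, 1.05 and 1.28 in Veh_PD1 and 0.94, 1.02, 0.90, 0.42 and 0.85 in GYY_PD1. Its difference between GYY_IgG and Veh_IgG was -0.20 (SE 0.13, limma adjusted p = 1.00), and that between the combination and Veh_IgG was -0.20 (limma adjusted p = 0.368), or -0.10 without GYY_PD1 replicate 4.
Trim24, a bromodomain coregulator of nuclear receptors, had 1.27, 1.54, 1.97, 1.09 and 0.82 in Veh_IgG, 1.00, 1.06, 0.84, 1.05 and 1.48 in GYY_IgG, 0.52, 1.40, 1.69, 1.23 and 1.63 in Veh_PD1 and -0.13, 1.56, 0.75, 0.98 and 1.19 in GYY_PD1. It differed by -0.47 (SE 0.29, limma adjusted p = 0.363), and its relative Trim33, a regulator of SMAD4, by -0.24. Without GYY_PD1 replicate 1 these were -0.22 and -0.095, and without Veh_IgG replicate 3 Trim24 was at -0.31.
Trim46, which bundles microtubules at the start of axons, had 0.81, 0.74, 0.41, 0.08 and 0.47 in Veh_IgG, 0.54, 0.58, 0.25, 0.78 and 0.45 in GYY_IgG, 0.43, 0.68, 0.30, 0.21 and 0.38 in Veh_PD1 and 2.31, 0.69, 0.42, 0.87 and 0.19 in GYY_PD1. The difference of 0.39 (SE 0.28, limma adjusted p = 0.411) was 0.04 without GYY_PD1 replicate 1 and -0.07 without replicates 1 and 4.

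Trim63, the muscle atrophy ligase MuRF1, varied most within groups once those 2 libraries were set aside, with an SD of 0.98 over 18 libraries. Its lowest, median and highest relative log2 values over the 20 libraries were -2.47, -1.18 and 0.78, the last in Veh_PD1 replicate 5. The 9 skeletal muscle markers summed to 300.5 TPM in Veh_IgG replicate 1 and to 1.76 to 8.24 TPM in the other 19 libraries. In Veh_IgG replicate 1 Trim63 was at 8.66 TPM, its highest, and Trim72, a membrane repair protein of muscle, at 3.69 TPM. On the relative log2 scale neither was the highest of its group there: Trim63 was at -0.33, with Veh_IgG replicate 3 at -0.17, and Trim72 was at -1.57, in a Veh_IgG range of -1.75 to -1.31. Over the 18 libraries the median member had a within-group SD of 0.28, beside 0.32 for the median of all tested genes.

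Whether TRIM genes tracked interferon signalling was asked over libraries, against the mean relative log2 of 26 interferon response genes that include Irf7 and Isg15 and no TRIM gene. That mean was 1.27 ± 0.27 in GYY_PD1, 0.77 ± 0.13 in GYY_IgG, 0.50 ± 0.62 in Veh_PD1 and 0.15 ± 0.39 in Veh_IgG (SD, n = 5), and the lowest combination library lay above the highest Veh_IgG library. 25 of the 26 genes lay higher in the combination than in Veh_IgG (median 1.05). None passed the adjusted threshold and 19 reached an unadjusted p under 0.05. Without GYY_PD1 replicate 1 all 26 lay higher (median 1.19) and 21 reached it, beside the medians of the antiviral members given above (-0.03 with that replicate and 0.28 without).

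Over all 20 libraries no member's correlation with the interferon mean passed a permutation test adjusted over all 15396 genes outside the list, where 0.559% of genes did. Trim30a had r = 0.17 and rho = 0.65, and Trim21 had r = -0.01 and rho = 0.43, both with GYY_PD1 replicate 1 far below the rest. Without the 2 libraries farthest in the interferon mean (Veh_IgG replicate 2 and Veh_PD1 replicate 5), r of Trim30a was 0.04 and that of Trim21 was -0.10. Over the 18 libraries without GYY_PD1 replicates 1 and 4, 2 members passed, against 0.591% of genes. These were Trim30a (r = 0.84, permutation p = 1e-05, the smallest 100000 resamples can give, adjusted p = 0.00440) and Trim21 (r = 0.79, permutation p = 9e-05, adjusted p = 0.0239). By rank Trim30a passed (rho = 0.83, permutation p = 4e-05, adjusted p = 0.0171). Trim21 did not pass by rank (rho = 0.66, permutation p = 0.00404, adjusted p = 0.195). Leaving out GYY_PD1 replicate 1 alone gave the same count of 2, where 1.05% of genes passed, and rescaling to coding genes over the 18 libraries also gave 2 (0.927%). With a pseudocount of 1 over all libraries 1 member passed (0.26%). On the deposited scale all 36 did, where 85.3% of genes passed.

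Part of this relation lies between groups. With each of the 18 libraries taken relative to its group mean, r was 0.68 for Trim30a (permutation p = 0.0200, adjusted p = 0.579) and 0.69 for Trim21 (permutation p = 0.0236, adjusted p = 0.594), and no gene passed. Without the 2 libraries then farthest (Veh_IgG replicate 2 and GYY_PD1 replicate 2), r was 0.74 and 0.64 (permutation p = 0.00077 and 0.0074, adjusted p = 0.0926 and 0.228), and neither passed. Over the 11 libraries in which protein-coding genes held more than 20% of TPM, a choice made after seeing the data, r was 0.90 and 0.83 (permutation adjusted p = 0.211 and 0.380). The next members over 18 libraries were Trim12c (r = 0.66, permutation adjusted p = 0.168), Trim34a (r = 0.39) and Trim30c (r = 0.35). At the other end Trim24 had r = -0.52 over both 18 and 20 libraries (permutation adjusted p = 0.404 and 0.355). The median member had r = -0.0027 over 18 libraries, and the median of all genes -0.06.

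**Figure D4:**
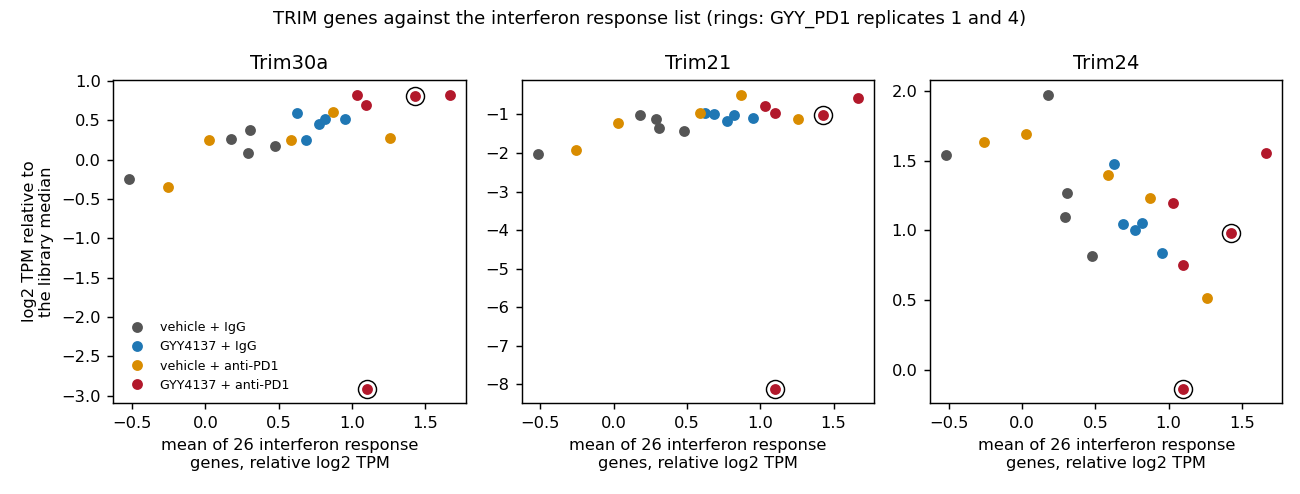
Relative log2 TPM of Trim30a, Trim21 and Trim24 (vertical axes) against the mean relative log2 TPM of 26 interferon response genes (horizontal axes), 1 point per library, coloured by group; rings mark GYY_PD1 replicates 1 and 4. Over the 18 unringed libraries r is 0.84, 0.79 and -0.52.

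The 5 promoters printed above belong to members with 18-library r of 0.84 (Trim30a), 0.79 (Trim21), 0.66 (Trim12c), 0.39 (Trim34a) and -0.23 (Trim26). In the 22 members whose windows lack the ISRE-like letters r ran from -0.52 to 0.35, with Trim30c highest. The 9 members with no window lay between -0.41 and 0.17. These are descriptions with no test.

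Markers of other cell types were read beside these values. All 5 T cell markers tested of 7 listed (Cd3e, Cd3g and Cd2 among them) lay higher in the combination than in Veh_IgG, with a median of 2.01. None passed the adjusted threshold and 4 reached an unadjusted p under 0.05. Their summed level was low throughout, at 1.95 to 5.09 TPM in Veh_IgG, 2.39 to 17.2 in GYY_IgG, 1.17 to 8.87 in Veh_PD1 and 0.910 to 13.7 in GYY_PD1. The 7 macrophage markers summed to 551 to 1173 TPM in Veh_IgG, 193 to 1030 in GYY_IgG, 161 to 765 in Veh_PD1 and 28.7 (replicate 1) to 537 in GYY_PD1. On the relative scale 6 of 7 lay lower in the combination than in Veh_IgG (median -0.45, and -0.24 without GYY_PD1 replicate 1). Without GYY_PD1 replicates 1 and 4, 4 of 7 lay lower (median -0.03). All 5 erythroid markers lay lower in the combination than in Veh_IgG (median -3.35, and -1.58 without GYY_PD1 replicate 1), 4 of them at an unadjusted p under 0.05. They summed to 136.0 to 304.3 TPM in Veh_IgG, 79.6 to 296.2 in GYY_IgG, 46.5 to 132.9 in Veh_PD1 and 0.964 to 62.0 in GYY_PD1. The 2 adipocyte markers tested (median 3.28) and the 4 of the proximal kidney tubule (median 1.75) lay higher, none at an unadjusted p under 0.05. The adipocyte list summed to 0.399 to 11.6 TPM in Veh_IgG and to 1.05, 2.68, 181.2, 0.708 and 4.30 in GYY_PD1. Its high value was thus in replicate 3 alone. For the tubule list the sums were 0.539 to 37.5 and 1.24 to 16.5 TPM in those groups. The 4 distal nephron markers (median 1.12) and 4 endothelial markers (median 0.51) also lay higher. Of 5 epithelial tumour markers 4 lay lower (median -0.22, and 0.15 without GYY_PD1 replicate 1). None of these lists had an unadjusted limma p under 0.05 with all libraries. The part of these cells in the TRIM values was not tested.

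Other genes of the ubiquitin and sensing pathways gave no adjusted call in any comparison. Of 8 tested TRIM relatives under other names, 2 reached an unadjusted p under 0.05 in the combination against Veh_IgG, both higher. Among all tested genes 5.5% reached it higher and 11.4% lower. These were Mefv, the pyrin inflammasome sensor (2.52, SE 0.77, limma adjusted p = 0.231), and Mid1, a microtubule-bound ligase (1.13, SE 0.47, limma adjusted p = 0.274, and 0.71 without GYY_PD1 replicate 1). Among 19 genes of the ubiquitin machinery 2 reached it higher and 3 lower (median -0.35, and -0.08 without GYY_PD1 replicate 1), the 3 lower being Ube2d3, Ube2d1 and Ube2d2a at -0.63, -0.93 and -0.61 (limma adjusted p = 0.231, 0.244 and 0.261), and at -0.39, -0.55 and -0.28 without GYY_PD1 replicate 1. For the ubiquitin machinery those counts are near the shares among all genes. Ube2d1, Ube2d2a and Ube2d3 encode ubiquitin-conjugating enzymes with which many RING ligases work. Among 15 RNA and DNA sensing genes 3 reached it higher and 1 lower (median -0.04, and 0.20 without GYY_PD1 replicate 1), beside 5.5% and 11.4% of all genes. The 3 higher were the RIG-I-like proteins Dhx58 (0.89, limma adjusted p = 0.209) and Ifih1 (0.58, limma adjusted p = 0.241) and the kinase Ikbke (0.50, limma adjusted p = 0.232).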

How the data were processed

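The authors deposited 1 table of log2 TPM for 34234 genes in 20 libraries, with no constant added and a floor of -8.88 for 0 TPM. Reads were handled with Salmon 0.14.1, HTSeq 0.11.0, cutadapt and fastp on mm10, per the submitters' processing notes, which give them no order. Which tool made the TPM is not given in the sources used here. TPM keep no read number, so the depth cannot be read from the table and counting error is not given. The labels name biological replicates and treated mice, and p-values measure only the spread between these libraries. The mouse number in the column name is 1343 for GYY_PD1 replicate 1 and 4574 for GYY_IgG replicate 5. All other libraries carry numbers from 2104 to 2135.

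Genes with TPM of at least 1 in at least 5 libraries were tested (15422). The library median of log2 TPM was subtracted, and limma 3.58.1 (R 4.3.3) was fitted to 4 group means over 20 libraries with trended shrinkage (16 residual and 2.158 prior degrees of freedom). P-values were Benjamini-Hochberg adjusted over all tested genes, and under 0.05 was a call. Correlations with the interferon list used 100000 two-sided permutations (36 members reported). The design had set their adjustment over the members, and it was instead made over all 15396 genes outside the list. The fits were tested on simulated data with the spread of all 20 libraries. In the combination against Veh_IgG, 43 of 200 simulated 2-fold changes (21.5%) and 121 of 200 simulated 4-fold changes (60.5%) were called. A count of 0 members called therefore does not exclude changes of that size. Alternatives were scalings, pseudocounts, filters, other fits, a replicate block and libraries left out.

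The members, role lists and tests were chosen with earlier results of these data known. Values in every library are given for the 6 members with the smallest p in GYY_PD1 against Veh_IgG, the 2 smallest in each other comparison, the 4 highest in TPM and the first of each role list. Trim12a is not analysed here. Gene positions are from GENCODE M21 and promoters from RefSeq (GRCm38.p6).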

Additional observations from a re-analysis of the deposited data

Results flagged for a closer look

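In groups of 5 libraries, a library was marked where its gap to the nearest other exceeded 0.71 of the range of the group (Dixon's 95% value). Of 76 groups of relative log2 values from 19 members, 13 were marked. Chance marks about 1 in 20 groups of members not picked by their values. The 19 include Trim30a, Trim21, Trim34a and Trim56, chosen after their values were seen, so the count of 13 cannot be set against chance. GYY_PD1 replicate 1 accounted for 6: Trim12c at 2.97, Trim14 at 2.92, Trim44 at 0.66, Trim30a at -2.91, Trim21 at -8.12 and Trim34a at -8.12, the last pair at 0 TPM. GYY_PD1 replicate 4 was low in Trim13 at -2.63 and in Trim3 at 0.42. GYY_IgG replicate 3 was low in Trim27 at 0.61 and in Trim8 at 0.72. In Veh_IgG, Trim12c was low in replicate 2 at -0.32, Trim14 was high in replicate 1 at 0.56, and Trim44 was low in replicate 5 at 1.11.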

How the results depend on the processing

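The count of 0 members called held in all 6 comparisons under every alternative that gave a value, apart from GYY_PD1 against Veh_IgG on the deposited scale (25 members, all lower, where 70.2% of genes were called) and with no filter (13 members, all lower, where 20.5% were). Leaving out any 1 library gave 0 to 0 members in each comparison. Replicate numbers gave no clear sign of pairing. Same-numbered libraries had a median correlation of deviations of 0.01 (-0.08 to 0.11), beside -0.009 (-0.17 to 0.21) for other numbers. Of the same-numbered pairs 1 of 30 was over 0.1, and 7 of 20 libraries correlated best with their own number. Such weak correlations cannot show that pairing was absent. With the replicate block 0 members were called in every comparison. The count of members following the interferon list, 0 over all libraries, was 36 on the deposited scale (where 85.3% of genes passed), 1 with pseudocount 1, 2 without GYY_PD1 replicates 1 and 4, 2 after rescaling to coding genes without them, 1 by Spearman rho without them, and 0 to 2 with 1 library left out. The settings that combine a scale or measure with libraries left out, the 11 libraries with a coding share over 20%, and the runs without the 2 farthest libraries were chosen after seeing the data. Of 671 alternative values for the 20 differences of members named by the rule, each in its own comparison, 15 reversed sign, none by leaving out 1 library. Members outside that rule did reverse, Trim30a (0.66), Trim21 (0.55), Trim34a (1.03) and Trim56 (0.06) among them, in the combination against Veh_IgG without GYY_PD1 replicate 1. On the deposited scale and with no filter these were Trim12c (-1.10 and -0.66), Trim13 (-1.27 and -0.83) and Trim46 (-1.52 and -1.08) against Veh_IgG, Trim39 (-0.46 and -0.30) in Veh_PD1 against Veh_IgG, and Trim13 (-0.54 and -0.12) and Trim7 (-0.46 and -0.0393) in GYY_PD1 against GYY_IgG. The deposited scale also turned the interaction of Trim8 (-0.18). Without GYY_PD1 replicates 1 and 4, Trim46 was at -0.0702, or -0.0251 on the coding scale. By construction the deposited scale keeps the shift of the median gene, and without a filter the median is taken over all genes.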
